A study of Mus musculus with 2 samples.

Results

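The 9 CC chemokine genes *Ccl2*, *Ccl3*, *Ccl4*, *Ccl6*, *Ccl7*, *Ccl8*, *Ccl9*, *Ccl11* and *Ccl21a* were taken by symbol from the 33696 genes listed in both count tables, and each symbol was found once. They are described by cell type and by treatment in amputated mouse digits. CC chemokines are small secreted proteins that bind G protein-coupled receptors on leukocytes and set where these cells migrate. Matrix glycosaminoglycans hold the proteins near the cells that release them, and atypical receptors remove them without signalling. In wounds, stromal cells and macrophages release attractants of monocytes, neutrophils release attractants of further leukocytes, and lymphatic vessels release a chemokine that guides dendritic cells and T cells.

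Each treatment is 1 library of single cells from wild-type ICR mice, an outbred stock, so nothing measures the variation between replicates of a treatment, and p-values are not given. In both, hindlimb digits 2 and 4 were amputated through the middle phalanx at postnatal day 3, and a microcarrier bead was placed in the wound at postnatal day 7. The FGF8 bead carried fibroblast growth factor 8 at 500 ng/µl, the control bead carried 0.1% BSA, and tissue distal to the stump was collected 24 h later, at postnatal day 8. Each library pooled 20 digits of 5 mice, males and females together, after the epithelium was removed and the tissue digested with Liberase. Digits were taken without regard to whether they would regenerate.

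The BSA library held 3703 barcodes and 67739460 UMIs (unique molecular identifiers, each 1 captured transcript), and the FGF8 library held 7249 and 124889213. Cell filters kept 3252 and 6715 cells with a median of 15377 and 12251 UMIs, and 4 kept barcodes occurred in both libraries. Clusters were given names ending in -like from marker lists, which left 462 BSA and 858 FGF8 cells unnamed. The pools differed in sex, with 79.3% female cells among those that could be called in the BSA library and 24.6% in the FGF8 library, so ratios are also given within each sex. Levels are UMIs of a gene per 1000000 UMIs of the cell type (CPM), a 3′ end count that needs no length correction. All intervals are 95% intervals for counting error and leave out the variation between animals. Those of levels and ratios count each UMI as independent, so they also leave out the variation between cells. Ratios are log2 ratios of CPM, FGF8 over BSA, for genes with at least 10 UMIs in types with at least 50 cells in each library, and a change past 2-fold is called.

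Of the 9 genes, 8 lie on chromosome 11 (GRCm39) and 1 on chromosome 4. The first group on chromosome 11 holds *Ccl2* (chr11:81926397-81928279), *Ccl7* (chr11:81936532-81938351), *Ccl11* (chr11:81948618-81953781) and *Ccl8* (chr11:82006007-82007625), all on the plus strand. The second group holds *Ccl9* (chr11:83463745-83473161), *Ccl6* (chr11:83478708-83483913) and *Ccl3* (chr11:83538670-83540191) on the minus strand and *Ccl4* (chr11:83553383-83555509) on the plus strand. *Ccl21a* (chr4:42772859-42773995, minus strand) has near-identical copies on the same chromosome, so its reads can be split or lost between them and its level is uncertain. The RefSeq promoter table (GRCm38.p6) held 5 of the 9, namely *Ccl3*, *Ccl6*, *Ccl8*, *Ccl9* and *Ccl21a*. The 250 bases before the RefSeq start are printed for the neighbours *Ccl9* (minus strand, chr11:83578637-83578886) and *Ccl6* (minus strand, chr11:83593088-83593337), whose levels differed most in neutrophil-like cells. They are also printed for *Ccl8* (plus strand, chr11:82114935-82115184), which stood out in macrophage-like cells. Judged by the offset of its neighbours between builds, the RefSeq start of *Ccl9* lies inside the GRCm39 gene span given above. Capitals mark matches, on either strand, to TATAAA, to the AP-1 letters TGANTCA or to the NF-kB motif.
Ccl9: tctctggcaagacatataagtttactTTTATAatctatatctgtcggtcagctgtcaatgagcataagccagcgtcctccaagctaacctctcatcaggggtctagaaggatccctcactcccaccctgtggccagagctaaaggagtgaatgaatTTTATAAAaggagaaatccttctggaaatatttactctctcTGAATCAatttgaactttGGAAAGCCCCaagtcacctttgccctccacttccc
Ccl6: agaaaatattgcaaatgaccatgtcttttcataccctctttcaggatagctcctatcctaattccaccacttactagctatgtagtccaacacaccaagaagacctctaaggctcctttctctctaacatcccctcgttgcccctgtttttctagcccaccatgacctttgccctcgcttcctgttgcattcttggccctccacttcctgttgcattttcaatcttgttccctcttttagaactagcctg
Ccl8: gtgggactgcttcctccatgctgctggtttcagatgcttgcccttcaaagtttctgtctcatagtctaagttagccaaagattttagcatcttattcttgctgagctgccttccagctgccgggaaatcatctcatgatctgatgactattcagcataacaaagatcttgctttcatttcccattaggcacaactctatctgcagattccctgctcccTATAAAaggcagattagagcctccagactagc
The *Ccl9* window held an NF-kB match, an AP-1 match and TATAAA on both strands, the last overlapping itself. In all promoters of this length, 7.25% held an NF-kB match, 6.75% an AP-1 match and 12.4% TATAAA. The *Ccl8* window held TATAAA alone, and the *Ccl6* window held none of the motifs searched, which also included the C/EBP letters TTGCNNAA (9.56% of promoters) and the GAS letters TTCNNNGAA (7.02%). Of the 5 windows, *Ccl21a* held the C/EBP letters and *Ccl3* held no match. A match is a run of letters and not a measured site, and no data here bear on binding.

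The 9 genes fell into 5 patterns over 10 named cell types, as the plot of levels by cell type shows. *Ccl2* and *Ccl7* were high in mast-like, macrophage-like and connective tissue-like cells. *Ccl3*, *Ccl4* and *Ccl6* were highest in neutrophil-like and then macrophage-like cells, and *Ccl8* and *Ccl9* were highest in macrophage-like cells. *Ccl11* was highest in smooth muscle or pericyte-like cells, and *Ccl21a* in endothelial-like cells. The cell type with the highest level of each gene was the same in both libraries.

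By counting intervals alone, the order of cell types below the first was clear for the abundant genes and not for the rare ones. For *Ccl2* the interval of mast-like cells lay above that of macrophage-like cells, which lay above that of connective tissue-like cells, followed by smooth muscle or pericyte-like cells, in each library. Below these, neutrophil-like and endothelial-like cells overlapped in both libraries. For *Ccl3* and *Ccl4* the neutrophil-like level stood clear of the macrophage-like level, which in the FGF8 library overlapped that of mast-like cells, at 57.3 CPM for *Ccl3* and 121 CPM for *Ccl4*. For *Ccl6* and *Ccl9* the neutrophil-like and macrophage-like intervals were apart from each other and from all other types. *Ccl8* had one strong type, with connective tissue-like cells next at 14.0 and 12.5 CPM, and *Ccl11* had a strong and a weak type, smooth muscle or pericyte-like and connective tissue-like cells. The type next to endothelial-like cells for *Ccl21a* was keratinocyte-like in the BSA library, at 74.2 CPM, and neutrophil-like in the FGF8 library, at 85.7 CPM, in 5 and 15 cells.

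**Figure D1:**
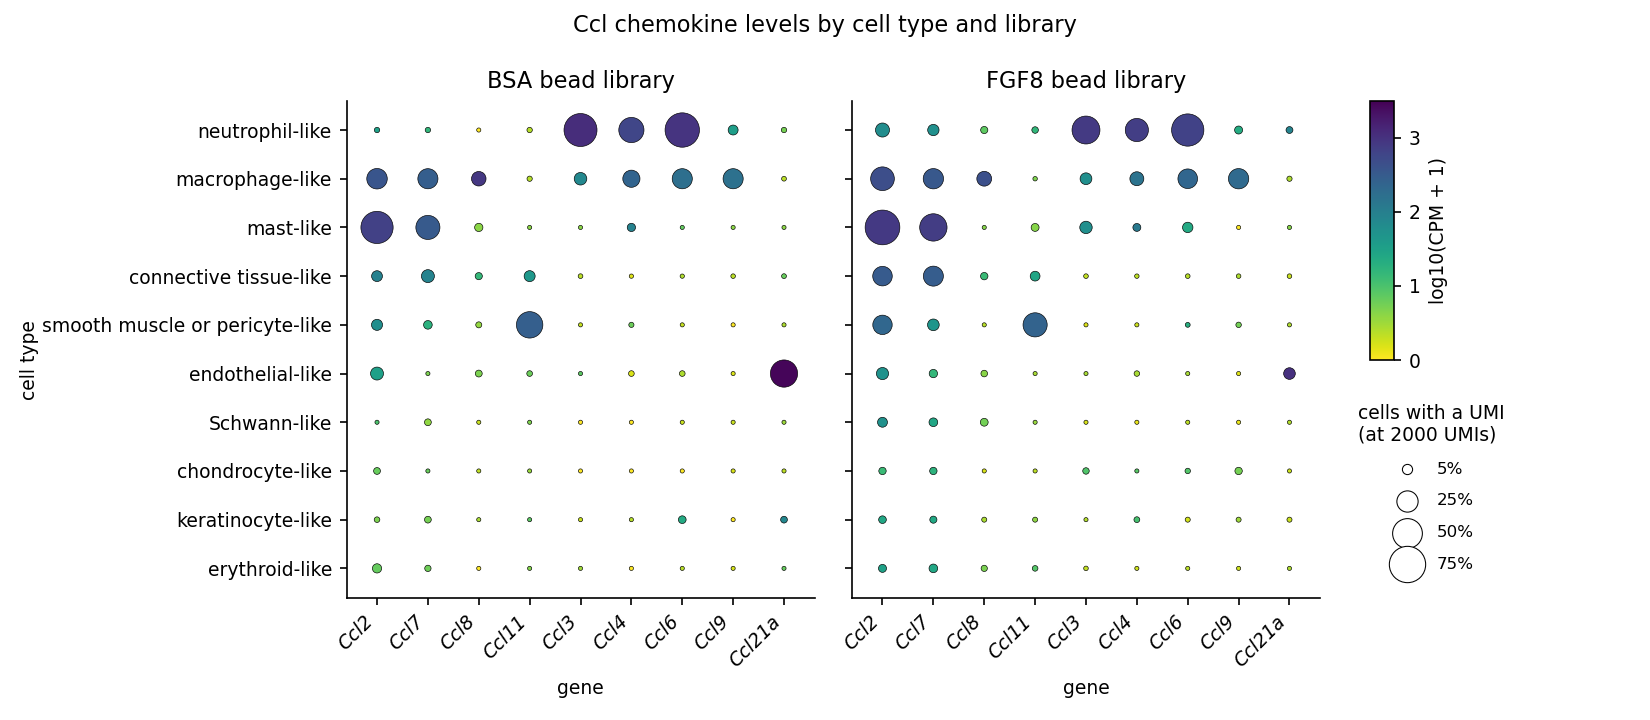
Level and spread of the 9 Ccl genes in 10 named cell types, with the BSA library on the left and the FGF8 library on the right. Colour is log10(CPM + 1) and dot size is the share of cells with a UMI after each cell was thinned to 2000 UMIs. The darkest dots are *Ccl21a* in endothelial-like cells, at 2833 CPM in the BSA library, and *Ccl3* in neutrophil-like cells, at 1131 CPM.

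*Ccl2* and *Ccl7* attract monocytes through the receptor *Ccr2*, and both were several-fold higher in connective tissue-like cells of the FGF8 library. *Ccl2* stood at 92.1 CPM in 1475 BSA cells (3120 UMIs) and at 323 CPM in 2825 FGF8 cells (21655 UMIs), a log2 ratio of 1.81 (1.75 to 1.86). *Ccl7* stood at 84.2 CPM (2852 UMIs) and 299.8 CPM (20119 UMIs), a log2 ratio of 1.83 (1.78 to 1.89). The intervals of the levels were far apart for both genes, 88.9 to 95.4 against 318 to 327 CPM for *Ccl2* and 81.2 to 87.4 against 296 to 304 CPM for *Ccl7*. Connective tissue-like cells held 57.0% of all *Ccl2* UMIs in the BSA library and 78.0% in the FGF8 library. For *Ccl7* the shares were 63.3% and 82.3%.

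More connective tissue-like cells held a UMI of each gene in the FGF8 library. With each cell thinned to 2000 UMIs, 5.79% (4.65 to 7.11) of 1469 BSA cells and 21.0% (19.5 to 22.5) of 2824 FGF8 cells had *Ccl2*. For *Ccl7* the thinned shares were 8.71% (7.32 to 10.3) and 22.1% (20.5 to 23.6). The unthinned shares were 20.3% and 48.2% for *Ccl2* and 29.4% and 53.0% for *Ccl7*, at median depths of 21832 and 20826 UMIs per cell. Free RNA from broken cells gives UMIs to cells that do not express a gene, and erythroid-like cells, which should lack *Ccl2*, were the measure of it here. Their thinned shares with *Ccl2* were 3.95% and 2.71% (unthinned 7.32% and 11.9%, at median depths of 18542 and 6983 UMIs). In the BSA library the connective share of *Ccl2* was therefore near the erythroid share, whose interval was 0.822 to 11.1%, while in the FGF8 library it was well above it. For *Ccl7* the erythroid shares were 1.32% and 3.34% thinned and 8.54% and 10.4% unthinned. By level, connective tissue-like cells had 16.4 times the *Ccl2* CPM of erythroid-like cells in the BSA library and 10.6 times in the FGF8 library. For the other 7 genes at most 3.66% of erythroid-like cells in the BSA library and 3.10% in the FGF8 library had a UMI.

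**Figure D2:**
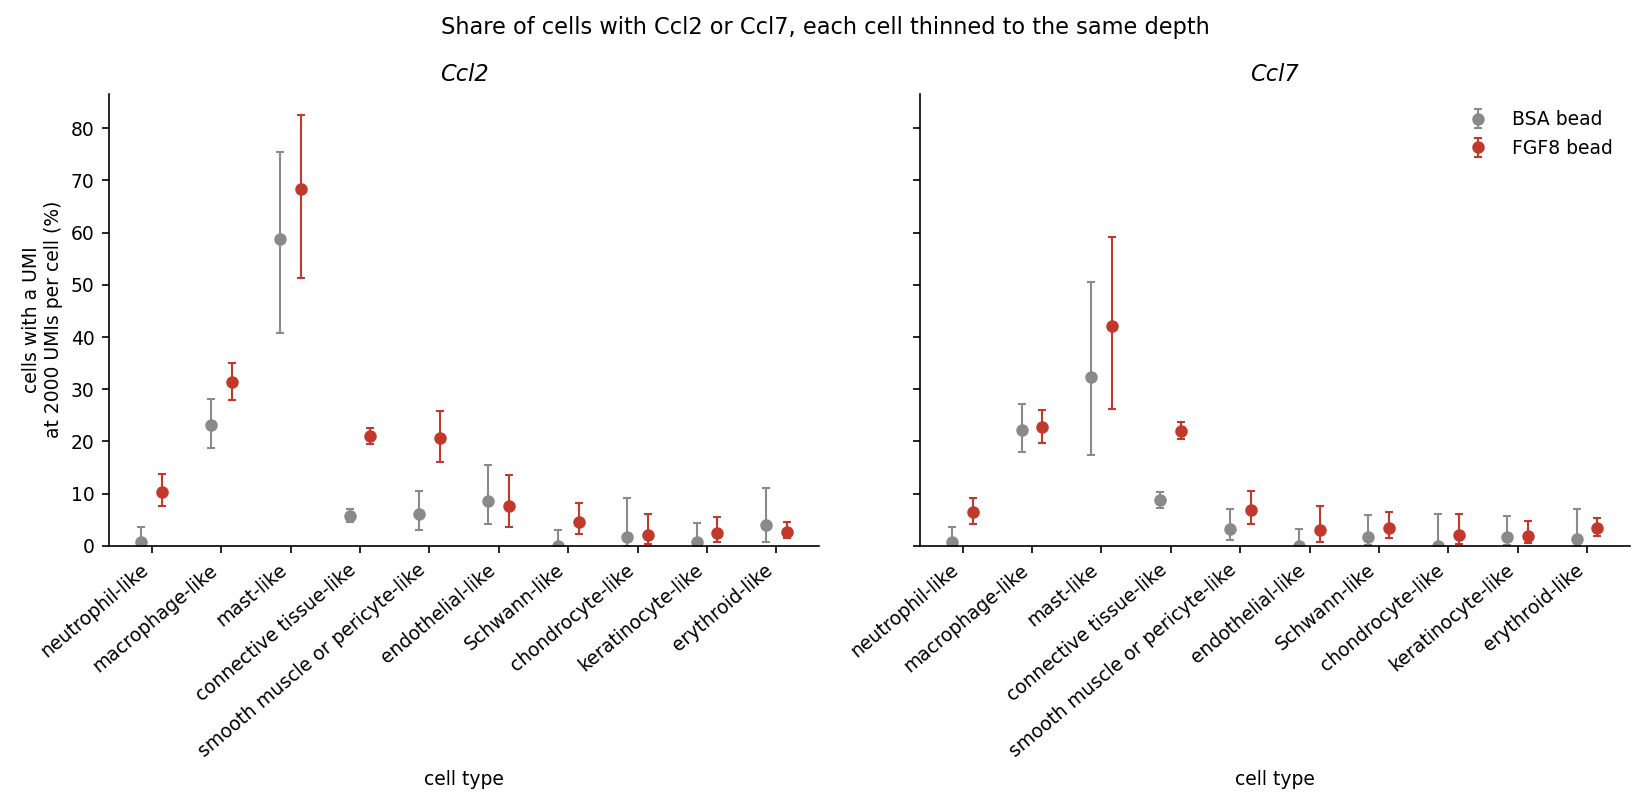
Share of cells with at least 1 UMI of *Ccl2* (left) or *Ccl7* (right) in 10 cell types after thinning each cell to 2000 UMIs, in percent, with exact binomial 95% intervals for the BSA library (grey) and the FGF8 library (red). Connective tissue-like cells stood at 5.79% and 21.0% for *Ccl2*, and erythroid-like cells at 3.95% and 2.71%.

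Connective tissue-like cells comprised 5 clusters, which the libraries filled unequally. The cluster led by *Prg4*, the gene of the joint lubricant lubricin, held 271 of 1475 cells in the BSA library and 1136 of 2825 in the FGF8 library. Its *Ccl2* level was 173 CPM in the BSA library and 457 CPM in the FGF8 library, the highest of the 5 clusters in each, with the *Tmeff2*-led cluster close to it in the BSA library at 169 CPM. Within every cluster *Ccl2* and *Ccl7* were higher in the FGF8 library, with intervals that left out 0. Within-cluster log2 ratios of *Ccl2* were 1.40 in the *Prg4*-led cluster, 1.61 in the *Chodl*-led, 1.76 in the *Kera*-led, 1.37 in the *Coch*-led and 0.64 in the *Tmeff2*-led cluster. The last stayed within 2-fold (0.53 to 0.76). Those of *Ccl7* ran from 1.41 to 1.80, all past 2-fold. The ratio over all connective tissue-like cells was larger than in any single cluster for both genes. With a stricter cell filter, between 500 and 6000 genes and under 10% mitochondrial UMIs, the *Ccl2* ratio was 1.18.

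**Figure D3:**
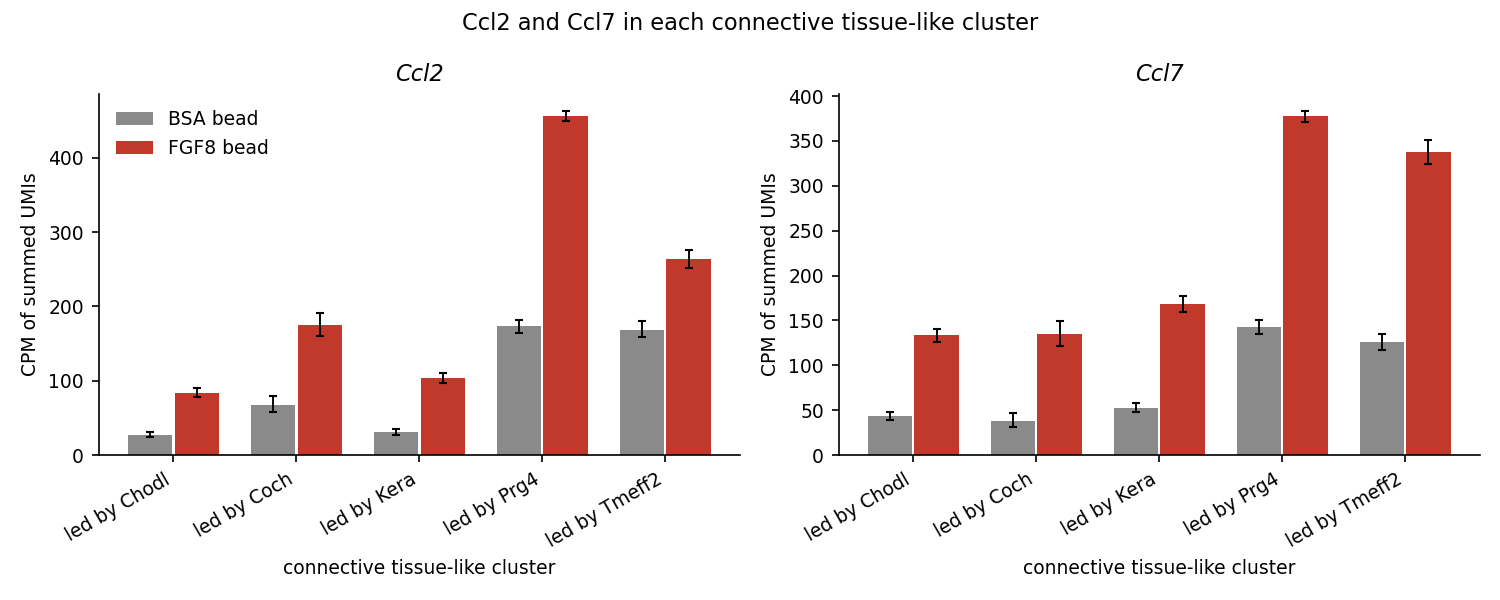
*Ccl2* (left) and *Ccl7* (right) in the 5 connective tissue-like clusters, in CPM of summed UMIs with exact Poisson 95% intervals, for the BSA library (grey) and the FGF8 library (red). Each red bar is taller than its grey neighbour, and the *Prg4*-led cluster reached 457 CPM of *Ccl2* in the FGF8 library.

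Both genes were higher in the FGF8 library within each sex. In female-called connective tissue-like cells the log2 ratio was 1.96 (1.89 to 2.04) for *Ccl2* and 2.22 (2.15 to 2.30) for *Ccl7*. In male-called cells it was 1.44 (1.34 to 1.55) and 1.67 (1.55 to 1.80). Macrophages also express both genes, and their 12 markers summed to 48.0 and 52.1 CPM in BSA and FGF8 connective tissue-like cells, against 10888 and 10402 CPM in macrophage-like cells. The 36 connective tissue markers themselves summed to 54466 CPM in the BSA library and 32574 CPM in the FGF8 library. The part of that difference in the chemokine ratios was not tested.

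A small number of cells carried much of the *Ccl2* and *Ccl7* signal. The 1% of connective tissue-like cells with the most *Ccl2* held 48.1% of its UMIs in the BSA library and 24.2% in the FGF8 library. For *Ccl7* these shares were 30.3% and 16.4%. Both genes were more evenly spread over cells in the FGF8 library. Without the 1% of cells with the most UMIs of the gene the log2 ratio was 2.36 for *Ccl2* and 2.09 for *Ccl7*. At 2000 UMIs per cell, 43.5% of BSA and 50.5% of FGF8 connective tissue-like cells with *Ccl2* also had *Ccl7*. Of cells without *Ccl2*, 6.58% and 14.5% had *Ccl7*, a lower share in each library.

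Over all 9 genes, 3 were called higher in connective tissue-like cells of the FGF8 library (*Ccl2*, *Ccl7* and *Ccl4*) where 6.54% of 19810 genes tested were, and 1 was called lower (*Ccl21a*) where 5.52% were. The median log2 ratio was -0.16 over the members and -0.08 over all genes tested. *Ccl4* rested on 16 and 81 UMIs, 0.472 and 1.21 CPM, and was found in 0.746% and 1.35% of cells. Its ratio was 0.47 with cell types called per cell and 0.87 at a resolution of 1.0, within 2-fold in both. *Ccl21a* rested on 190 and 60 UMIs, and in the BSA library 1% of cells held 82.6% of them. Its log2 ratio was -2.65 (-3.09 to -2.22), and -1.17 without the 1% of cells with the most of its UMIs. *Ccl3*, *Ccl6* and *Ccl9* stayed below 2 CPM in these cells in both libraries.

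*Ccl11*, eotaxin, attracts eosinophils through *Ccr3*, and it was mainly a stromal gene. Over all smooth muscle or pericyte-like and over all connective tissue-like cells its levels in the treatments lay within 2-fold. In smooth muscle or pericyte-like cells it stood at 286 CPM in the BSA library (69.5% of 187 cells) and 251 CPM in the FGF8 library (60.9% of 284 cells). The log2 ratio was -0.19 (-0.33 to -0.05) over all of them. It was -1.22 (-1.54 to -0.91) among cells called female and 0.22 (-0.03 to 0.47) among cells called male, so the lower level was found in the female cells. In connective tissue-like cells *Ccl11* stood at 41.8 and 26.9 CPM, a log2 ratio of -0.64 (-0.74 to -0.53), and the cluster led by *Tmeff2* had the highest level of the 5, 125 and 114 CPM. Within that cluster the ratio was -0.14 (-0.29 to 0.00), and the *Prg4*-led cluster, larger in the FGF8 library, had 17.1 and 11.2 CPM. Only the *Kera*-led cluster passed 2-fold, at -1.81 (-3.28 to -0.53), on 22 and 7 UMIs.

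In smooth muscle or pericyte-like cells *Ccl2* was more than 2-fold higher in the FGF8 library, as in connective tissue-like cells. Its level was 60.4 CPM in the BSA library (176 UMIs) and 221 CPM in the FGF8 library (810 UMIs), a log2 ratio of 1.87 (1.64 to 2.12). The ratio was 1.02 (0.62 to 1.40) among female cells and 2.45 (1.88 to 3.08) among male cells. *Ccl7* went from 50 to 172 UMIs, a log2 ratio of 1.45 (0.99 to 1.94), but 0.28 (-0.58 to 1.10) among female cells. Of the 8 members measured there, 4 were called higher (*Ccl2*, *Ccl7*, *Ccl6* and *Ccl9*), against 5.24% of 13270 genes, and 2 lower (*Ccl4* and *Ccl8*), against 2.52%. *Ccl6* and *Ccl9* were found in 4 and 2 FGF8 cells, and *Ccl4* and *Ccl8* had 15 and 8 UMIs in the BSA library.

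Schwann-like, chondrocyte-like, keratinocyte-like and erythroid-like cells also had more *Ccl2* in the FGF8 library, at low levels. Schwann-like cells had 8.91 CPM in the BSA library and 53.8 CPM in the FGF8 library. Keratinocyte-like cells had 3.83 and 24.9 CPM, and erythroid-like cells 5.62 and 30.5 CPM. Chondrocyte-like cells had 5.51 and 12.6 CPM. In the FGF8 library the chondrocyte-like level thus lay below that of erythroid-like cells, the measure of free RNA, and the keratinocyte-like level overlapped it.

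Macrophage-like cells had higher levels of *Ccl2* and *Ccl7* than connective tissue-like cells, and the treatments lay within 2-fold. *Ccl2* stood at 377 CPM in 381 BSA cells and 473 CPM in 791 FGF8 cells, a log2 ratio of 0.33 (0.25 to 0.41). *Ccl7* stood at 297 and 359 CPM, a log2 ratio of 0.27 (0.18 to 0.36). By sex the log2 ratio of *Ccl2* was -0.11 (-0.25 to 0.03) in female and 0.35 (0.19 to 0.52) in male cells, and that of *Ccl7* in male cells was -0.09 (-0.25 to 0.08). Whether these ratios differ from those in connective tissue-like cells cannot be tested with 1 library per treatment. The counting intervals cannot decide it, because they leave out the variation between animals and between cells. Mast-like cells, with 38 BSA and 56 FGF8 cells, had the highest *Ccl2* level of the 10 types, 661 and 836 CPM. Mast-like cells are not shown as ratios because fewer than 50 came from the BSA library. Their *Ccl7* level was 329 and 765 CPM, and in the BSA library its interval overlapped that of macrophage-like cells.

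*Ccl8*, in mice a ligand of *Ccr8*, was unevenly spread over macrophage-like cells. Macrophage-like cells held 88.9% of its UMIs in the BSA library and 80.5% in the FGF8 library. Its level was 861 CPM in BSA macrophage-like cells (4063 UMIs) and 438 CPM in FGF8 cells (3837 UMIs). The log2 ratio of -0.97 (-1.04 to -0.91) lay just inside 2-fold, and its direction held in all 12 alternatives, 3 of which passed 2-fold. Female cells had a ratio of -0.92 and male cells of -1.58, and thinning each cell to 2000 UMIs gave -0.50. Other markers differed in the same cells, with the 12 of monocytes or dendritic cells summing to 2598 CPM in the BSA library and 1414 CPM in the FGF8 library and the 12 of neutrophils to 301 and 179 CPM. Their part in the *Ccl8* ratio was not tested. The share of cells with *Ccl8* did not follow the level, at 16.0% (12.5 to 20.1) and 16.9% (14.4 to 19.7). The 10% of cells with the most *Ccl8* held 99.3% of its UMIs in the BSA library and 97.6% in the FGF8 library.

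A finer clustering, at a resolution of 1.0, was examined after the data had been seen. It split most macrophage-like cells into a cluster led by *C1qa*, a complement gene of tissue macrophages, and a cluster led by *Ly6c2*, a monocyte gene. The *C1qa*-led cluster (109 BSA and 200 FGF8 cells) met the macrophage naming rules, and the *Ly6c2*-led cluster (228 and 438 cells) met no naming rule and had no macrophage marker among its leading genes. *Ccl8* was higher in the first, at 1529.6 and 931 CPM, than in the second, at 420.2 and 129 CPM. It was lower in the FGF8 library in both, with log2 ratios of -0.72 (-0.79 to -0.64) and -1.71 (-1.85 to -1.56). In the *Ly6c2*-led cluster 1% of cells held 84.3% of *Ccl8* UMIs in the BSA library and 81.3% in the FGF8 library.

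*Ccl4*, an attractant of monocytes and T cells, was higher in the FGF8 library in the first cluster and lower in the second. In the *C1qa*-led cluster it stood at 96.7 CPM in the BSA library and 233 CPM in the FGF8 library, a log2 ratio of 1.27 (1.04 to 1.51). In the *Ly6c2*-led cluster it stood at 343 and 88.4 CPM, a log2 ratio of -1.96 (-2.13 to -1.79). Over all macrophage-like cells *Ccl4* was at 239 and 144 CPM, a log2 ratio of -0.74 (-0.85 to -0.62). The signal rested on few cells, since 1% of the *C1qa*-led cells of the FGF8 library, 2 cells, held 48.5% of their *Ccl4* UMIs. In the *Ly6c2*-led cluster the share of cells with *Ccl4* was lower too, at 31.6% in the BSA library and 15.1% in the FGF8 library.

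**Figure D4:**
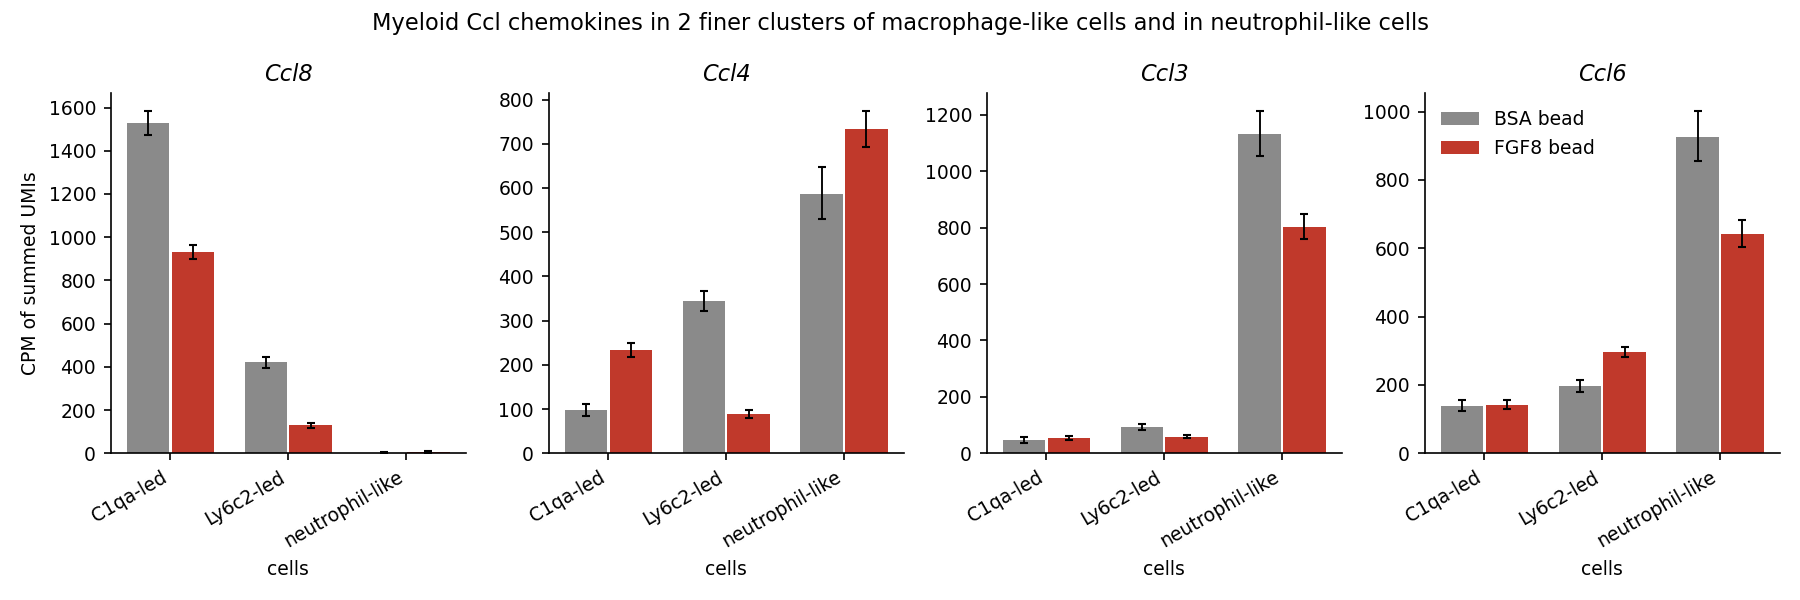
*Ccl8*, *Ccl4*, *Ccl3* and *Ccl6* in 2 finer clusters of macrophage-like cells, led by *C1qa* and by *Ly6c2*, and in neutrophil-like cells, in CPM of summed UMIs with exact Poisson 95% intervals, for the BSA library (grey) and the FGF8 library (red). The vertical scales differ between panels. *Ccl4* is higher in red in the *C1qa*-led cluster (96.7 and 233 CPM) and lower in red in the *Ly6c2*-led cluster (343 and 88.4 CPM).

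*Ccl6* and *Ccl9* are rodent chemokines that act through *Ccr1*, and both stayed within 2-fold in macrophage-like cells. *Ccl9* stood at 161 CPM in the BSA library and 201 CPM in the FGF8 library, in 51.7% and 49.4% of cells. *Ccl6* stood at 169.7 and 224 CPM. Their log2 ratios were 0.32 (0.20 to 0.45) and 0.40 (0.28 to 0.52). Of the 9 members measured in macrophage-like cells, 1 was called higher (*Ccl11*, 7 and 33 UMIs, under 2% of cells), against 8.67% of 14580 genes, and 0 lower, against 3.66%. The median log2 ratio was 0.32 over the members and 0.06 over all genes tested.

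**Figure D5:**
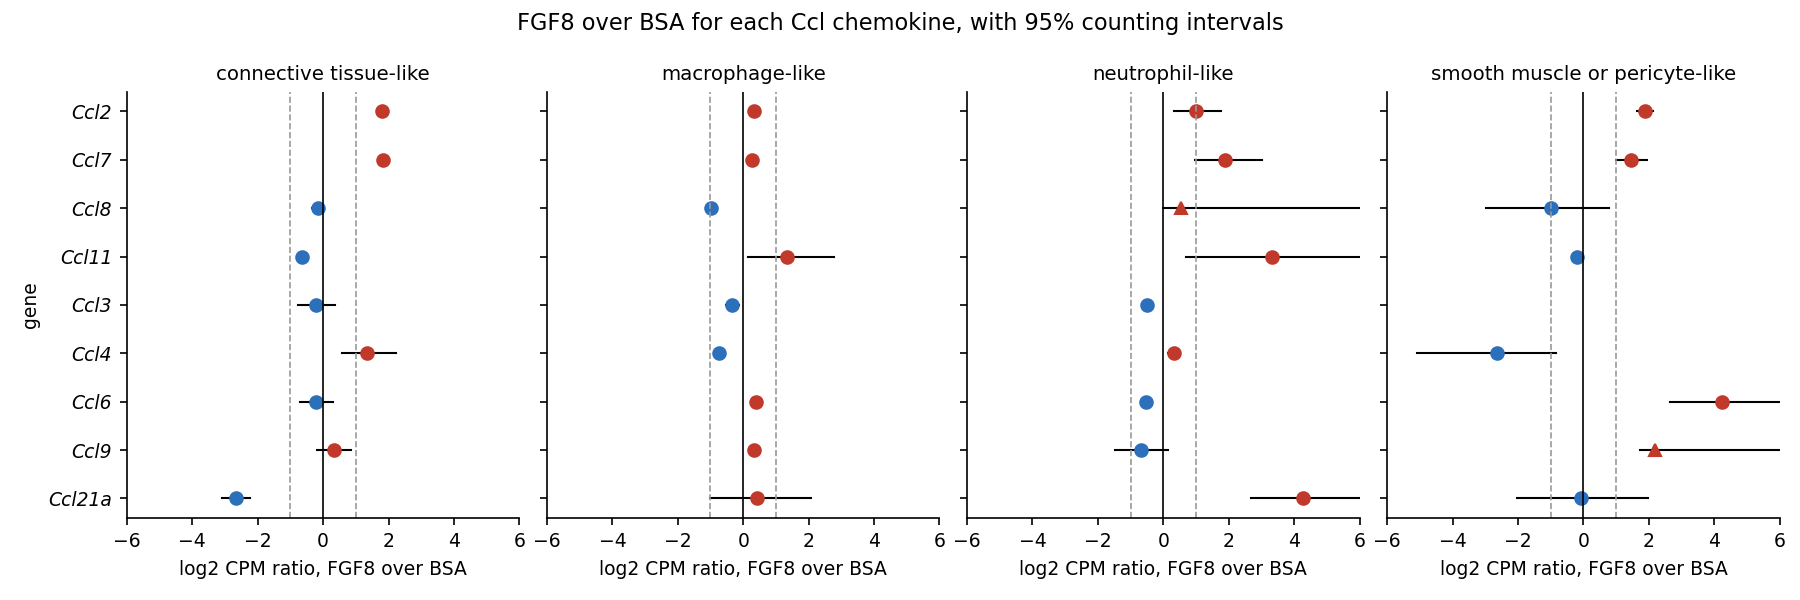
Log2 ratio of CPM, FGF8 over BSA, for the 9 Ccl genes in 4 cell types, with exact conditional 95% intervals cut at the edges of the axis. Triangles mark genes with no UMI in the BSA library. They stand at the ratio with 3 counts in place of none, which is neither a measured ratio nor a lower bound. Dashed lines mark 2-fold. *Ccl2* and *Ccl7* lie at 1.81 and 1.83 in connective tissue-like cells and at 0.33 and 0.27 in macrophage-like cells.

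Neutrophil-like cells had the highest levels of *Ccl3*, *Ccl4* and *Ccl6*, and the treatments differed by less than 2-fold in each. *Ccl3*, which binds *Ccr1*, stood at 1131 CPM in 159 BSA cells and 803 CPM in 539 FGF8 cells, a log2 ratio of -0.49 (-0.62 to -0.36). *Ccl6* stood at 927 and 642 CPM, a log2 ratio of -0.53 (-0.67 to -0.39). *Ccl4* was higher in the FGF8 library, at 587 and 733 CPM and a log2 ratio of 0.32 (0.16 to 0.49). The thinned share of cells with *Ccl3* was 61.7% (53.4 to 69.6) in the BSA library and 44.0% (39.1 to 48.9) in the FGF8 library. The unthinned shares were 69.2% and 49.0%, and erythroid-like cells had *Ccl3* in 2.44% and 0.816%. Median depths of neutrophil-like cells were 3219 and 2413 UMIs. Only 28 BSA and 32 FGF8 neutrophil-like cells were called female and 20 and 204 male, and the ratio of *Ccl4* within them was -1.65 and -0.54, both below 0. That of *Ccl3* was -0.40 (-0.80 to 0.00) and 0.16 (-0.24 to 0.58).

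Erythroid markers differed between the libraries in these cells. They summed to 42277 CPM in BSA and 7996 CPM in FGF8 neutrophil-like cells, and their part in the chemokine ratios was not tested. *Ccl9*, beside *Ccl6* in the genome, stood at only 34.3 and 21.3 CPM in these cells. At 2000 UMIs per cell, 84.9% of BSA and 63.6% of FGF8 neutrophil-like cells with *Ccl4* also had *Ccl3*. All 9 members were measured, and 4 were called higher (*Ccl2*, *Ccl7*, *Ccl11* and *Ccl21a*), against 13.7% of 11052 genes, and 0 lower, against 5.54%. Those 4 had at most 21 UMIs in the BSA library. *Ccl2* lay at the threshold, with 31.3 and 62.6 CPM.

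*Ccl21a*, a ligand of *Ccr7* made by lymphatic endothelium, was mostly found in endothelial-like cells, which held 92.1% of its UMIs in the BSA library and 87.9% in the FGF8 library. Its level there was 2833 CPM in 121 BSA cells and 1032 CPM in 141 FGF8 cells, a log2 ratio of -1.46 (-1.53 to -1.38). Cells with the gene made up 40.5% (31.7 to 49.8) and 7.80% (3.96 to 13.5), and erythroid-like cells 3.66% and 1.31%. The finer clustering set apart 66 BSA and 18 FGF8 lymphatic endothelial-like cells. Within these the level was 5931 CPM in the BSA library and 7304 CPM in the FGF8 library, so the direction turned. With 18 cells in the FGF8 library no ratio was taken. The finer endothelial-like cluster had no lymphatic marker among its leading genes. It held 55 BSA and 123 FGF8 cells, at 332 and 2.70 CPM. Whether lymphatic cells remained in it was not tested. Of the 6 members measured in endothelial-like cells, 1 was called higher (*Ccl7*, 7 and 31 UMIs), against 5.65% of 12252 genes, and 3 lower (*Ccl3*, *Ccl11* and *Ccl21a*), against 5.92%. In the FGF8 library that *Ccl7* level, 14.4 CPM, lay below the 25.3 CPM of erythroid-like cells, the measure of free RNA. *Ccl3* rested on 12 and 4 UMIs. *Ccl11* rested on 9 and 4 UMIs, with an interval of its log2 ratio from -3.59 to 0.40, which held 0.

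RNA of Ccr receptors was found in myeloid cells and mostly stayed within 2-fold there. In macrophage-like cells 6 of the 11 Ccr genes were measured, with 0 called higher and 1 lower, against 8.67% and 3.66% of 14580 genes. *Ccr2*, the receptor of *Ccl2* and *Ccl7*, stood at 262 and 226 CPM, a log2 ratio of -0.21 (-0.32 to -0.11). *Ccr1* stood at 128 and 159 CPM. The gene called lower was *Ccr7*, with 29 UMIs in the BSA library and 0 in the FGF8 library. In neutrophil-like cells 3 were measured, with 0 called higher and 1 lower, against 13.7% and 5.54% of 11052 genes. *Ccr1* stood there at 779.6 and 836 CPM. In connective tissue-like cells 6 were measured, all at or below 1.98 CPM, with 1 called higher (*Ccr1*) and 1 lower (*Ccr9*). Over all 19810 genes tested there, 6.54% were called higher and 5.52% lower. In smooth muscle or pericyte-like cells 2 of 3 were called higher and 0 lower, against 5.24% and 2.52% of 13270 genes.

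Of the 5 scavenging and atypical receptors, all were measured in connective tissue-like cells and stayed within 2-fold. *Ackr3*, which takes up chemokines of the CXC family, led them at 44.4 and 68.4 CPM, and *Ackr4*, which removes *Ccl21a*, stood at 12.9 and 7.21 CPM. *Ccrl2*, which holds chemerin at the cell surface, was called lower in macrophage-like cells, at 100.4 and 34.2 CPM. It was also called lower in neutrophil-like cells, at 3051 and 1427 CPM, a log2 ratio of -1.10 (-1.18 to -1.01).

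Among the 16 other Ccl genes, 10 were measured in connective tissue-like cells, and all were below the FGF8 levels of *Ccl2* and *Ccl7*. Of these, 2 were called higher and 2 lower, against 6.54% and 5.52% of all genes tested, and their median log2 ratio was -0.46. *Ccl20*, which attracts cells with *Ccr6*, was called higher, at 0.886 and 4.29 CPM, and so was *Ccl12*, at 0.532 and 1.19 CPM. *Ccl5* was called lower, at 15.4 and 7.59 CPM, as was *Ccl24*, on 17 and 5 UMIs. In macrophage-like cells 6 were measured, with 2 called higher and 1 lower, against 8.67% and 3.66% of all genes tested. *Ccl12*, a relative of *Ccl2* that lies between *Ccl11* and *Ccl8*, stood there at 295 and 239 CPM, a log2 ratio of -0.30 (-0.40 to -0.20). *Ccl5* was called lower there too, at 399.9 and 62.7 CPM.

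A further list held 22 genes, of inflammatory cytokines, NF-kB, feedback inhibitors, adhesion and early response. Its median log2 ratio, and not its level, was higher in connective tissue-like than in macrophage-like and neutrophil-like cells. Of 22, 20 were measured in connective tissue-like cells, where 4 were called higher and 0 lower, against 6.54% and 5.52% of all genes tested. Of the 20, 19 had a ratio above 0, and the median log2 ratio was 0.61 against -0.08 over all genes tested. *Nfkbia*, the inhibitor that NF-kB itself induces, stood at 286 CPM in the BSA library and 669 CPM in the FGF8 library, a log2 ratio of 1.23 (1.20 to 1.26). The others called higher were *Fosl1*, an AP-1 subunit (1.43), *Nfkb1*, an NF-kB subunit (1.18), and the early response gene *Ier3* (1.11). The cytokines were low in these cells, with *Il6* at 7.91 and 12.2 CPM and *Tnf* at 0.945 and 1.24 CPM. In smooth muscle or pericyte-like cells all 20 measured had a ratio above 0, with a median of 0.54. There 1 was called higher, against 5.24% of all genes tested. In endothelial-like cells 20 were measured, with a median of 0.88. There 7 were called higher and 1 lower, against 5.65% and 5.92% of all genes tested. *Ccl2* stood at 32.4 and 50.7 CPM in endothelial-like cells, a log2 ratio of 0.64 (0.17 to 1.13) within 2-fold.

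In macrophage-like cells 21 of the 22 were measured, with a median log2 ratio of -0.10. There 4 were called higher and 0 lower, against 8.67% and 3.66% of all genes tested. In neutrophil-like cells 2 of 20 were called higher and 2 lower, against 13.7% and 5.54% of all genes tested. Their median was -0.31 against 0.13 over all genes tested. The 2 called lower were *Tnf*, at 674 and 308 CPM, and its feedback inhibitor *Tnfaip3*, at 605 and 271 CPM. *Il1b* stood at 7404 and 7492 CPM in these cells, a log2 ratio of 0.02 (-0.03 to 0.06).

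All 9 genes of proteases and glycans that act on chemokines were measured in connective tissue-like cells, with a median log2 ratio of -0.05. There 1 was called higher and 2 lower, against 6.54% and 5.52% of all genes tested. *Mmp9*, a gelatinase, was called higher at 0.797 and 5.48 CPM, and *Dpp4*, a peptidase that trims chemokines at their amino end, was called lower at 21.9 and 6.36 CPM. *Mmp12* was called lower on 15 and 14 UMIs. *Mmp2*, which cleaves *Ccl7*, stood at 479 and 286 CPM, and the proteoglycan gene *Sdc4* at 167 and 289.7 CPM.

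The levels of the members were also set against 16241 other genes, as Pearson's r of log2(CPM + 1) over 18 points, 9 cell types in each of 2 libraries, a description in which points share a library and a depth. *Ccl3* was most like *Cass4* (0.98), *Ccl4* most like *C5ar1* (0.98), *Ccl6* most like *Ccdc88b* (0.96) and *Ccl9* most like *Rgs1* (0.98). *Ccl8* was most like *Atp6v0d2* (0.93), *Ccl11* most like *Ednra* (0.95) and *Ccl21a* most like *Mmrn1* (0.95). No gene outside the members came as close to *Ccl2* or *Ccl7* as they did to each other (0.90), the nearest being *Ifi202b* for *Ccl2* (0.84) and *Fndc7* for *Ccl7* (0.84).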

How the data were processed

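The data are 2 libraries of single cells from mouse digits. The authors captured cells with 10x 3′ chemistry and deposited raw UMI counts per gene and barcode, made with Cell Ranger 9.0.0 on GRCm39 per the labels, without normalization. Cells with more than 200 and fewer than 7500 genes and under 15% mitochondrial UMIs were kept. SCTransform and CCA integration were used as in the study's methods. The 30 principal components and the resolution of 0.5, higher than the study's, were chosen here (Seurat 5.3.0, sctransform 0.4.2, R 4.3.3). Ccl genes, *Xist*, Tsix and Y-linked genes were left out of the 2984 features used, of 3000. Doublets were not called, and only the ceiling on genes limits them.

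Clusters were named from 16 marker lists (172 genes), where a marker counted once 10% of the cells of a cluster had a UMI of it. A name needed 3 such markers, at least 1 of its markers among the 10 leading genes of the cluster, and fewer leading markers of any other list. The members and lists were chosen with earlier results of these data known, and the naming rules beyond the lists were set after the clusters were seen.

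UMIs were summed by library and type in Python 3.11.15 (numpy 2.4.6, scipy 1.17.1, pandas 2.3.3, matplotlib 3.10.9). Where 1 library had 0 UMIs of a gene, 3 counts took their place, which gives a cautious value and not a measured ratio. Medians include such values. Ratio intervals are exact conditional, level intervals exact Poisson and share intervals exact binomial. The genes named are the 9 members, genes of the pathway lists and the 3 genes most like each member, among genes with at least 100 UMIs. Female cells had *Xist* UMIs without any of *Ddx3y*, *Eif2s3y*, *Kdm5d* or *Uty* on the Y chromosome, and male cells the opposite. Alternatives were a stricter filter, resolutions of 0.2 and 1.0, no integration, types called for each cell by its markers, cells weighted equally, thinning to 2000 UMIs (343 BSA and 781 FGF8 cells left out), each sex alone, centring, a minimum of 50 UMIs, and leaving out the 1% of cells with the most UMIs of a gene. The ratio and its interval were run on simulated independent Poisson counts, the assumption on which the interval is built. That run checks the calculation and not whether the assumption holds in these data.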

Additional observations from a re-analysis of the deposited data

Results flagged for a closer look

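*Ccl4* differed by more than 2-fold in opposite directions in 2 finer clusters of macrophage-like cells, with a log2 ratio of 1.27 in the *C1qa*-led cluster and -1.96 in the *Ly6c2*-led cluster, which met no naming rule, and the difference was not tested. Of the *Ccl4* UMIs of the *C1qa*-led cluster in the FGF8 library, 2 of 200 cells held 48.5%.

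The other pairs of opposite direction, none of them tested as a difference, lay in cells where the gene was rare. *Ccl3* had a log2 ratio of 2.18 in chondrocyte-like cells (0 and 27 UMIs), with 3 counts in place of 0 and an interval from 1.78. In endothelial-like cells it had -1.85 (12 and 4 UMIs). *Ccl4* had 2.76 in keratinocyte-like cells, with 39 FGF8 UMIs in 7 cells, and -2.65 in smooth muscle or pericyte-like cells, with 15 BSA UMIs in 3 cells. Among connective tissue-like clusters it had 2.90 in the *Kera*-led and -2.0 in the *Chodl*-led cluster. *Ccl6* had 4.24 in smooth muscle or pericyte-like cells, with 71 FGF8 UMIs in 4 cells, and -4.94 in keratinocyte-like cells, with 48 BSA UMIs in 3 cells. It had 3.18 in the *Tmeff2*-led and -1.41 in the *Kera*-led connective tissue-like cluster. In female-called connective tissue-like cells it had -1.72. In male-called ones it had 1.34, with 3 counts in place of 0 and an interval from 0.99. *Ccl21a* had 4.26 in neutrophil-like cells, with 145 FGF8 UMIs in 15 cells, and -6.22 in keratinocyte-like cells, with 155 BSA UMIs in 5 cells.

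Pairs are given where both ratios passed 2-fold in opposite directions with counting intervals that left out 0. That requirement was narrowed after the values had been seen, and the comparison between clusters of 1 cell type was added after the values of *Ccl4* had been seen.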

How the results depend on the processing

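*Ccl2* and *Ccl7* in connective tissue-like cells kept their direction and stayed past 2-fold in all 12 alternatives, with log2 ratios from 1.18 to 2.36 and from 1.67 to 2.22. Not all of these could have lowered them. The minimum of 50 UMIs could not change either ratio, since both genes had far more. Leaving out the 1% of cells with the most UMIs of the gene raised both, since those cells held a larger share in the BSA library. The count of members called higher in connective tissue-like cells, 3, was 2 at a resolution of 1.0 and with cell types called per cell, 4 under the stricter filter and 5 in male-called cells, and the count called lower, 1, rose to 2 in female-called cells. In macrophage-like cells the count called higher, 1, fell to 0 under the stricter filter, thinning, in each sex alone, with a minimum of 50 UMIs and without the top 1% of cells by UMIs of the gene, and rose to 2 at a resolution of 1.0. The count called lower, 0, rose to 1 with cell types called per cell, thinning, each sex alone, centring and without the top 1% of cells by UMIs of the gene. The log2 ratio of *Ccl11* in macrophage-like cells reversed to -0.71 in male-called cells. The cause was not tested, except that a resolution of 1.0 keeps only the *C1qa*-led cluster in the macrophage-like class. *Ccl6* in connective tissue-like cells ran from -1.72 to 2.02 and *Ccl4* in macrophage-like cells from -1.30 to 1.27, so neither kept its direction in all of them. By the mean of both libraries, among types with at least 30 cells in each, all 9 members kept the cell type of their highest level in 6 of 7 alternatives. At a resolution of 1.0 this leaves out lymphatic endothelial-like cells (18 in the FGF8 library), whose *Ccl21a* level was higher than that of endothelial-like cells. Of the 9, 7 kept it at a resolution of 0.2, where *Ccl2* and *Ccl7* were highest in macrophage-like cells and the mast-like cluster held 92 BSA and 151 FGF8 cells. No paired analysis was possible because each treatment is 1 library. With 1 pool per treatment, the treatment, the animals, the sex mix and the capture cannot be told apart, and levels of a few UMIs lie near the free RNA seen in erythroid-like cells.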

Other observations

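A cluster led by *Cd3g*, a T cell gene, was left unnamed at a resolution of 0.5, and at 1.0 a T or NK-like cluster of 54 BSA and 95 FGF8 cells was named. A few of its cells carried members that are otherwise highest in neutrophil-like and macrophage-like cells. *Ccl6* stood at 299 CPM in the BSA library and 869.7 CPM in the FGF8 library (798 to 947), the latter above the level in neutrophil-like cells, 642 CPM (604 to 681). All of these UMIs lay in 4 BSA cells (7.41%) and 8 FGF8 cells (8.42%), while 2.44% and 0.979% of erythroid-like cells had *Ccl6*. Median depths of the cluster were 5706 and 5270 UMIs per cell. *Ccl4* stood at 200.4 and 325 CPM, *Ccl3* at 123 and 69.8 CPM and *Ccl9* at 82.1 and 115 CPM. *Ccl2* and *Ccl7* were at or below 8.11 CPM there.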
